A study of Mus musculus with 298 samples.

Results

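The suprachiasmatic nucleus (SCN) of the hypothalamus is the pacemaker of daily rhythms, and the cells described are 7 mouse SCN neurons labelled day, depolarized and cFOS-. They were chosen by the start of their titles (SCNd-d) and set against the 27 neurons labelled day, active and cFOS- (titles starting SCNd-a), so 34 cells were used, 11.4% of the cells of the series. Another 7 cells of the series are labelled depolarized and come from the other combinations of time of day and cFOS label. Each cell was recorded by patch clamp in a slice prepared at about ZT0, where ZT0 is lights on, from mice on a cycle of 12 h light and 12 h dark, and its cytoplasm was then drawn into the pipette for a Nextera XT library. The labels name the cells SCN interneurons and give no strain, sex, age, animal or slice, and the design text states that several cells could come from one slice. Neither the electrical meaning of depolarized nor the basis of the cFOS label is given in the labels. No drug, transgene or deletion is named for either group. Cells are called by the number in their titles, such as S324.

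SCN neurons fire spontaneously, faster by day than by night, and most are GABAergic cells that also carry a neuropeptide such as AVP, VIP or neuromedin S. A sustained depolarization opens voltage-gated calcium channels, and calcium and cAMP signals act through the factor CREB on immediate early genes such as Fos, and on Per1, the clock gene through which light resets the pacemaker. Day firing itself is set by a balance of sodium leak, calcium, and voltage-gated and calcium-activated potassium currents.

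Among activity and stress response genes, Fos, Egr1, Btg2 and Ppp1r15a were 1.40-fold, 1.83-fold, 3.33-fold and 2.75-fold higher in the depolarized than in the active cells, with log2 ratios of Egr1 and Btg2 that were 0.35 and 0.71 without cell S400. The immediate early genes as a list had no common direction, with 18 of 35 measured members higher, where 42.5% of all measured genes were higher, and 12 lower by 2-fold or more. Ribosomal protein genes were higher for 31 of 36 measured members, although 1 cell contributed much of this. The T-type calcium channel gene Cacna1g, the antioxidant gene Srxn1 and the ATP synthase gene Atp5a1 were lower. Pooled levels of microglia markers were lower for all 13 members, but medians over cells were lower for 0. Of the 7 depolarized cells 3, and of the 27 active cells 11, carried 100 CPM or more of these markers. CPM are counts scaled to a total of 1000000 reads in a cell or, where a level is called pooled, in all cells of a group together.

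Because no animal is named, each group counts as 1 sample and no test between groups was made. Pooled levels come with exact Poisson 95% intervals, which cover the counting error of reads without molecular identifiers and not the spread between cells, slices or animals. Exact intervals of shares of cells take the cells as independent draws, which cells of 1 slice are not, so they describe counting error in these cells only. Ratios are log2 of (pooled CPM + 1) in depolarized over (pooled CPM + 1) in active cells, and folds are on that scale. The depolarized cells had 3412667 to 7722884 reads (median 5735679), against 3985080 to 12421652 (median 6628475) in the active cells. Genes with a read numbered 2897 to 5693 (median 4262) in depolarized cells and 2418 to 7922 (median 4308) in active cells, and shares of cells below were taken after every cell was thinned to 3412667 reads.

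The depolarized cells did not form a group of like profiles. Across genes, the Pearson correlation of log2 (CPM + 1) between 2 depolarized cells had a median of 0.331 over 21 pairs (0.242 to 0.440). Between a depolarized and an active cell the median was 0.335 and between 2 active cells it was 0.328. No pair came near to being a repeat of 1 library, the highest value being 0.538, and no measured gene separated the groups, since the depolarized and active cells had values apart from each other for 0 of the 11193 genes (0% in either direction).

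**Figure D1:**
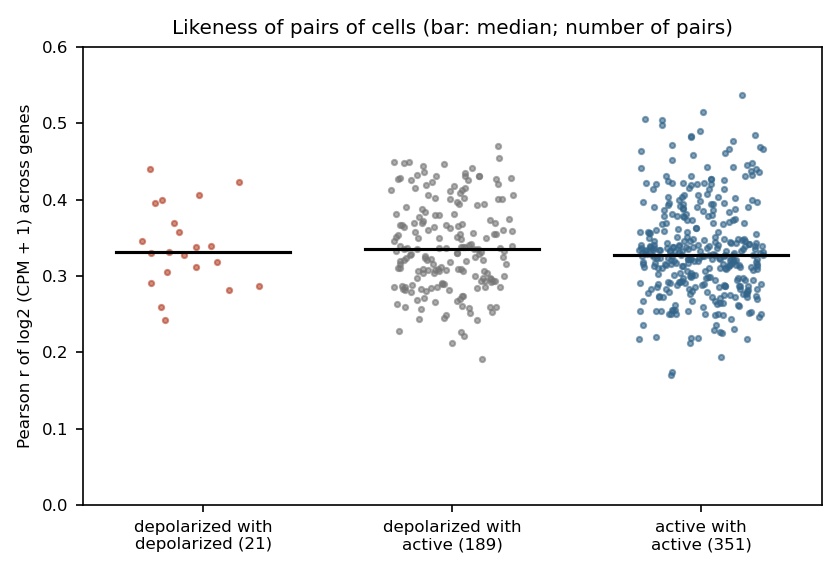
Pearson correlation across genes of log2 (CPM + 1) for pairs of day cFOS- cells, each point 1 pair and each bar a median. The medians are 0.331 for pairs of depolarized cells, 0.335 for depolarized with active cells and 0.328 for pairs of active cells, and the clouds overlap over most of their range.

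Markers of neurons were present in both groups, as the label interneuron has it. The summed level of 12 neuron markers was 4359 to 8375 CPM (median 5931) in depolarized cells and 1877 to 9168 CPM (median 5484) in active cells. The summed level of 12 SCN neuron markers was 930.0 to 13884 CPM (median 2816) in depolarized cells and 0 to 14348 CPM (median 3393) in active cells. Gad2, which encodes a GABA-synthesising enzyme (chromosome 2, 22622205 to 22693874, plus strand), ran from 0 to 591 CPM (median 218) in depolarized cells and from 0 to 2525 CPM (median 0.373) in active cells. Its pooled levels were 233.02 CPM in depolarized cells and 258.4 CPM in active cells, and 6 of 7 and 15 of 27 cells had a thinned read. The log2 ratio of -0.15 was 0.65 without the cells that carried microglia markers. Glutamatergic neuron markers had no read in any depolarized cell, and summed to 0 to 845 CPM (median 0) in the active cells. Of the 27 active cells, 19 also had no read of them and 5 had 100 CPM or more.

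A gene counted as measured with at least 5 pooled CPM in one group. Of the 11193 measured genes, 4758 (42.5%) were higher in depolarized cells and 6435 (57.5%) lower. By 2-fold or more, 2313 (20.7%) were higher and 4320 (38.6%) lower. A sparse gene is more easily missed in 7 cells than in 27: 14.7% of measured genes had no read in any depolarized cell, and 1.32% had none in any active cell. Among the 3058 genes found in at least 17 of the 34 cells, 48.8% were higher. The median log2 ratio was -0.32 over all measured genes and -0.02 over the genes found in at least 17 cells. Past 2-fold, a direction that also held for the mean and the median over cells, with the top cell of each group left out and without each depolarized cell in turn was found for 4.67% of measured genes among the higher and 5.79% among the lower ones. Levels of gene lists below are read against these shares. Members named from a list were mostly taken by a ranking that favours large ratios in all summaries, so their evenness describes genes chosen for it.

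**Figure D2:**
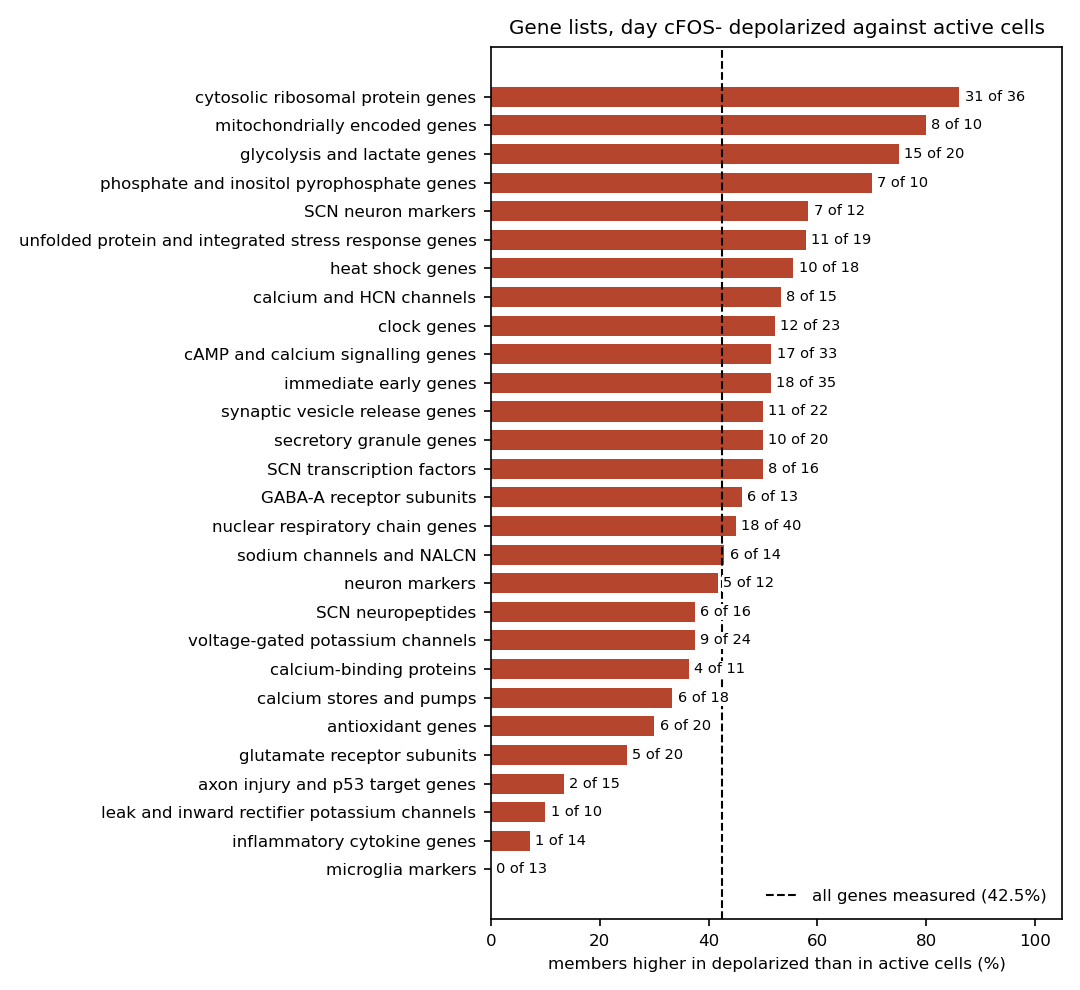
Share of measured members with a higher pooled CPM in depolarized than in active cells, for each gene list with at least 10 measured members; the dashed line is the share over all measured genes, 42.5%. Ribosomal protein genes (31 of 36) and mitochondrially encoded genes (8 of 10) lie furthest above the line, and microglia markers (0 of 13) lie furthest below it.

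The immediate early genes, which neurons transcribe within minutes of activity, were a list of 35 measured members that holds Egr1, Btg2, Gem and Fosb but neither Fos, which was described on its own, nor Ppp1r15a, which is in the stress response list. Of the 35, 18 were higher in depolarized cells, 9 of them by 2-fold or more (median log2 ratio 0.14). The upstream sequences of Fos, Btg2 and Ppp1r15a are shown here because they carry the CREB response element (TGACGTCA) or its shorter core (TGACG, searched on both strands and contained in the longer word). Each is the 250 bases before the RefSeq transcript start in GRCm38.p6, 5′ to 3′ on the gene's strand, with these words in capitals: Fos is at chr12:85473640-85473889 (plus strand), Btg2 at chr1:134079156-134079405 (minus strand) and Ppp1r15a at chr7:45526269-45526518 (minus strand).
Fos: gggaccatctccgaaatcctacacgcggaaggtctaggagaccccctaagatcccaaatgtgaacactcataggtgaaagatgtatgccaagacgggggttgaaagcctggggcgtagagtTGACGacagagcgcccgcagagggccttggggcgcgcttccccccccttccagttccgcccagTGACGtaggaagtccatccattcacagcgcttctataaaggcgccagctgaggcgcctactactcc
Btg2: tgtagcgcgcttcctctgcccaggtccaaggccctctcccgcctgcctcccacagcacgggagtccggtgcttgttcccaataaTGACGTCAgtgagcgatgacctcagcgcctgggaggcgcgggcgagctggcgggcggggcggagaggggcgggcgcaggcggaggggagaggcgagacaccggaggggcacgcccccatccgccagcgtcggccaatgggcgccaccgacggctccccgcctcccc
Ppp1r15a: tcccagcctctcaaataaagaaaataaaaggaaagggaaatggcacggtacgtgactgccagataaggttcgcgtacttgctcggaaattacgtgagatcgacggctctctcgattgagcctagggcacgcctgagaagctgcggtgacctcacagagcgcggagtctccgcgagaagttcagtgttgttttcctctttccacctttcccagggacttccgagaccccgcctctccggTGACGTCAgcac
The longer word ends 159 bases before the start of Btg2 and 5 bases before that of Ppp1r15a, and the Fos sequence holds the shorter word in 2 places, the nearer of which ends 62 bases before the start. Within 250 bases before the start, 1.77% of the 27025 genes in the RefSeq table had the longer word and 19.8% the shorter word. A gene was counted where any of its entries had a match. Among the 28 genes of the immediate early list with an entry, 3 had the longer and 20 the shorter word. These are matches of letters and not binding sites.

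Fos, the gene of the AP-1 subunit whose protein gives the cFOS label its name (chromosome 12, 85473890 to 85477273, plus strand), was read in each of the 7 depolarized cells and in 26 of 27 active cells, although both groups carry the label cFOS-. It ran from 409.4 to 7999 CPM (median 4241) in depolarized cells and from 0 to 12736 CPM (median 2601) in active cells. The groups overlapped, and 6 of the 7 depolarized cells lay at 2211 CPM or above. Pooled levels were 4353 CPM (4333 to 4374) in depolarized cells and 3102 CPM (3094 to 3110) in active cells, a log2 ratio of 0.49 that stayed between 0.32 and 0.75 as each depolarized cell was left out. The 32 day cFOS- cells labelled silent had a pooled level of 2882 CPM.

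Egr1, a zinc finger factor induced by activity, ran from 190 to 11093 CPM (median 4252) in depolarized cells and from 0 to 11146 CPM (median 1001) in active cells. Its pooled level was 3406 CPM in depolarized cells and 1861 CPM in active cells (log2 0.87), and it was highest in cell S400, without which the ratio was 0.35. Btg2, an antiproliferative gene induced by activity and by DNA damage, ran from 0 to 2939 CPM (median 90.7) in depolarized cells and from 0 to 976 CPM (median 0.109) in active cells. It was highest in S400, followed by S412 at 1334 CPM and S381 at 323.9 CPM. Its log2 ratio of 1.74 dropped to 0.71 without S400. Gem, a small GTPase that restrains calcium channels, was at 326.98 CPM in depolarized cells and 146 CPM in active cells, with 1570 CPM in cell S401 and at most 1.40 CPM in S349, S381, S387 and S400 (log2 1.16, and 0.52 without S401). In the opposite direction, Fosb, another AP-1 gene, had 107 CPM in depolarized cells and 185.3 CPM in active cells, and a thinned read in 3 of 7 and 20 of 27 cells. The 7 cells thus split over these genes, with S400, S412 and S381 high in both Egr1 and Btg2, S387 high in Egr1 with almost no Btg2, and S324, S349 and S401 at 597.2 CPM or less of Egr1.

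Ppp1r15a, which encodes the GADD34 subunit that lets translation resume after stress, had the most even difference among these genes. It was taken from its list by a ranking that favours such genes. It ran from 0.293 to 2636 CPM (median 1155) in depolarized cells and from 0 to 3292 CPM (median 235.6) in active cells. Apart from S401, at 0.293 CPM, each depolarized cell had at least 789 CPM. The pooled level was 1365 CPM (1354 to 1377) in depolarized cells and 496.5 CPM (493.4 to 500) in active cells. The log2 ratio of 1.46 stayed between 1.13 and 1.60 as each depolarized cell was left out, and it was 1.72 against the 10 active cells whose numbers lie between those of the first and last depolarized cell. The level in silent cells was 484 CPM. Of the 19 measured unfolded protein and stress response genes, Ppp1r15a included, 11 were higher and 6 were lower by 2-fold or more (median 0.13). Pdia4, an endoplasmic reticulum disulfide isomerase, had 232.1 CPM in depolarized cells and 71.2 CPM in active cells, Pdia6, another isomerase, had 205.8 and 465.5 CPM, and Ddit3, the stress-induced factor CHOP, had 28.3 and 67.7 CPM. The Pdia4 ratio turned to -0.40 without the cells that carried microglia markers.

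**Figure D3:**
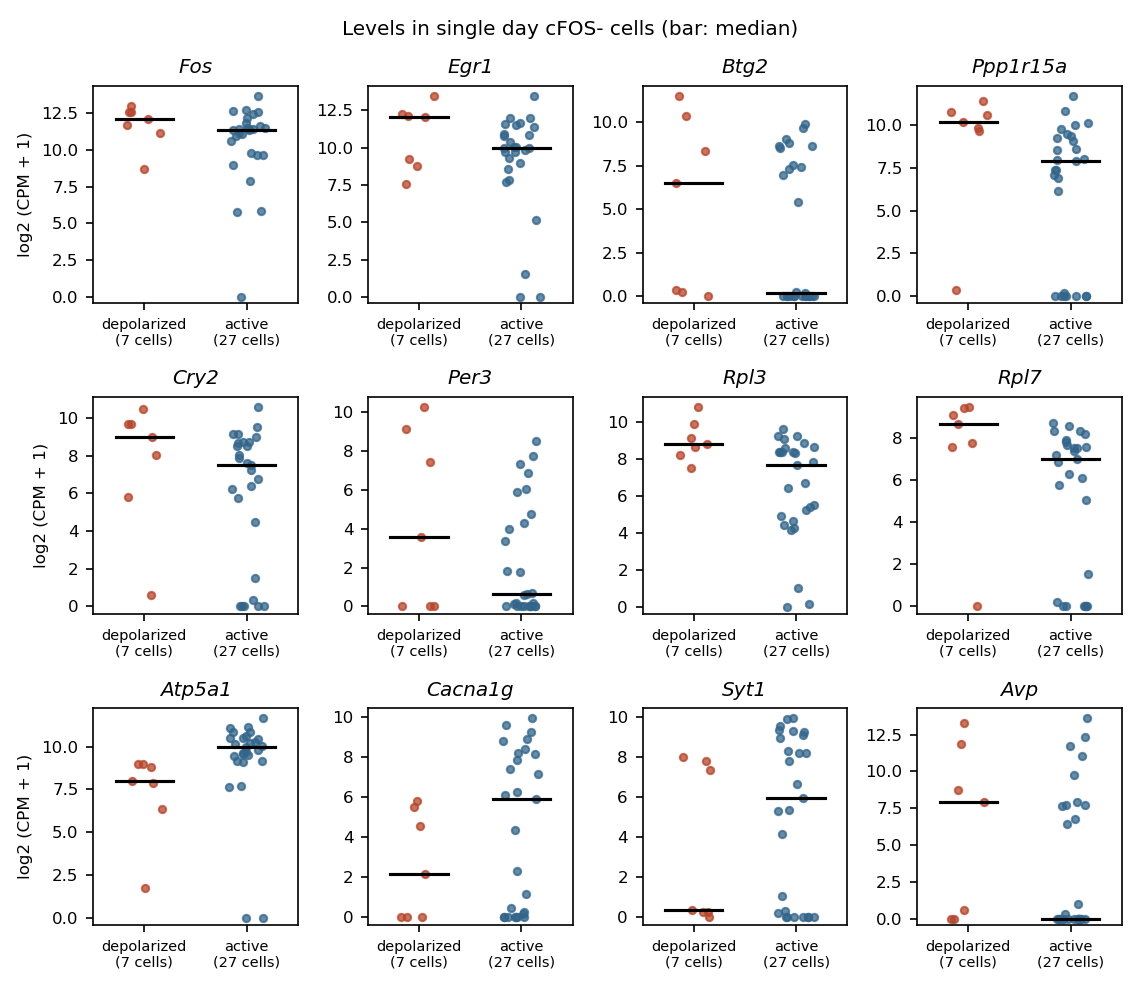
Levels of 12 genes as log2 (CPM + 1) in each of the 7 depolarized and 27 active day cFOS- cells, each point 1 cell and each bar a median. Ppp1r15a and Rpl3 are high in nearly all depolarized cells with medians of 1155 and 444.1 CPM, Atp5a1 is low in them with a median of 253.9 CPM against 1019 CPM in active cells, and Btg2, Per3, Syt1 and Avp split the depolarized cells into cells with and without the transcript.

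Clock genes lay near the background, with 12 of 23 measured members higher in depolarized cells, 3 by 2-fold or more, and a median log2 ratio of 0.02. Cry2, a repressor of the CLOCK and BMAL1 activators, was read in 7 of 7 depolarized and 22 of 27 active cells. It ran from 0.523 to 1414 CPM (median 514) in depolarized cells and from 0 to 1540 CPM (median 180) in active cells, with pooled levels of 507.8 and 260 CPM (log2 0.96, 0.70 to 1.18 on leaving out each depolarized cell). Per3, a period gene, was at 200 CPM in depolarized cells and 42.3 CPM in active cells, a difference carried by S401 (1246 CPM), S381 (574.8 CPM) and S400 (175.5 CPM), while 3 depolarized cells had no read (log2 2.22, and 1.26 without S401). Bhlhe40, a repressor also called DEC1, had 193.5 CPM in depolarized cells and 84.1 CPM in active cells, but its log2 ratio was 0.03 without S381. Nr1d2, the REV-ERB beta repressor, was lower in depolarized cells, at 113 CPM against 234.6 CPM.

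Per1 (chromosome 11, 69095217 to 69109960, plus strand) had nearly equal pooled levels in the groups and no steady direction. It had 85.9 CPM (83.1 to 88.9) in depolarized cells and 89.3 CPM (88.0 to 90.7) in active cells, with medians over cells of 27.1 and 35.5 CPM. Its log2 ratio of -0.06 ran from -1.38 (without S324) to 0.17 (without S387) as each depolarized cell was left out. It was 0.07 against the 10 active cells in the number range and -3.17 without the cells that carried microglia markers. Nr1d1, which encodes REV-ERB alpha (chromosome 11, 98767932 to 98775333, minus strand), ran from 0 to 3843 CPM (median 52.5) in depolarized cells and from 0 to 2702 CPM (median 394.2) in active cells. Its pooled levels of 1297 and 843 CPM gave a log2 ratio of 0.62, which was -0.18 without S349 and -6.53 without the cells that carried microglia markers.

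Among neuropeptides, the depolarized cells were of mixed kinds. With 100 CPM as the limit for carrying a peptide, AVP transcript was found in 4 of 7 depolarized and 10 of 27 active cells, and Nms in 3 and 7. Prok2, the rhythmic output signal prokineticin 2, was found in 3 of 7 depolarized and 7 of 27 active cells, the enkephalin gene Penk in 3 and 5, and Vip in 1 and 3. Each of these shares has a wide exact interval (18.4% to 90.1% for Avp in the 7 cells, and 19.4% to 57.6% in the 27). Cck and Gal reached 100 CPM in 0 of 7 depolarized cells, which allows a share of up to 41.0% were the cells independent draws (exact Clopper-Pearson interval), and in 3 and 5 of the 27 active cells. At least 1 peptide of the list reached 100 CPM in 7 of 7 depolarized and 26 of 27 active cells.

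Pooled peptide levels followed these few cells. Avp (chromosome 2, 130580620 to 130582554, minus strand) had 2523 CPM in depolarized cells and 793 CPM in active cells (log2 1.67). The ratio was 0.27 without S349, which held 9756 CPM, and silent cells had 5165 CPM. Prok2 (chromosome 6, 99711299 to 99726392, minus strand) had 313.9 CPM in depolarized cells and 94.8 CPM in active cells, and Nms (chromosome 1, 38939149 to 38950276, plus strand) had 434 and 320 CPM. Without S324 the log2 ratio of Prok2 was 0.57 and that of Nms was -0.82. Prok2 and Nms reached 100 CPM in S324, S349 and S412, and Avp in these and S401; S324, S349 and S412 are the depolarized cells with microglia markers at 100 CPM or more. Without the cells of both groups with such markers, the log2 ratio was -1.40 for Avp, -6.96 for Prok2 and -7.55 for Nms, which had 0.44 in all cells. Vip (chromosome 10, 5639218 to 5647617, plus strand) was lower in depolarized cells, at 75.4 CPM against 515 CPM. It was concentrated in S381, at 541.8 CPM, and its highest active cell held 6858 CPM, while the medians over cells were 4.15 and 0 CPM. Of 16 measured peptides, 6 were higher and 10 lower by 2-fold or more, where 42.5% and 38.6% of all measured genes were so. No depolarized cell had a read of 5 of the 16, and by the medians over cells 4 were higher and 0 lower.

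Voltage-gated potassium channel genes, which repolarise the spike, were higher for 9 of 24 measured members, against 42.5% of all measured genes, and lower by 2-fold or more for 14 (median -1.80), and leak and inward rectifier potassium channel genes were higher for 1 of 10 (median -3.27). Most of these genes are sparse: at a limit of 20 CPM the median of the voltage-gated list was 0.29 over 16 members. Of the 10 leak and inward rectifier members, 5 had no read in any depolarized cell and 0 differed by the medians over cells. This list summed to 104.91 CPM in depolarized and 174.855 CPM in active cells when pooled. By the median over cells its sums were 50.63 and 19.66 CPM. The voltage-gated list had 3 members higher and 0 lower by the medians over cells. Its sum per cell had a median of 1269.96 CPM in depolarized cells and 830.1 CPM in active cells. Dpp6, an auxiliary subunit of A-type channels, was the best expressed example, with 365 CPM in depolarized cells and 198 CPM in active cells (log2 0.88, and 0.43 without S401). Kcnma1, the large-conductance calcium-activated channel BK (chromosome 14, 23289431 to 24014491, minus strand), had 68.6 CPM in depolarized cells and 107 CPM in active cells, with a thinned read in 4 of 7 and 12 of 27 cells (log2 -0.64, and -1.87 without S401). The direction of Kcnma1 turned in other settings, to 2.06 against the 10 active cells in the number range, which had 15.7 CPM, to 2.65 by the medians over cells and to 0.11 without the cells that carried microglia markers. Clcn3, a chloride and proton exchanger of endosomes and vesicles, had 532.1 CPM in depolarized cells and 201 CPM in active cells (log2 1.40, and 0.71 without S400).

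Calcium channel genes differed by subunit. Of 15 measured calcium and HCN channel genes, 8 were higher, and 4 were past 2-fold in each direction (median 0.19). Cacna1g, the T-type channel that opens near rest, ran from 0 to 53.7 CPM (median 3.46) in depolarized cells and from 0 to 988 CPM (median 59.3) in active cells. Pooled, it had 22.3 CPM (20.8 to 23.8) in depolarized cells and 184 CPM (182 to 186) in active cells, and the log2 ratio of -2.99 stayed between -3.55 and -2.77 as depolarized cells were left out. Cacna1d, the low-threshold L-type channel (chromosome 14, 30039939 to 30491455, minus strand), had 3.03 CPM in depolarized cells and 130 CPM in active cells. Its highest depolarized cell held 10.8 CPM and its highest active cell 1161 CPM, and 3 of 7 and 12 of 27 cells had a thinned read. The median over cells was 0 CPM in both groups, and the log2 ratio of -5.02 was -2.30 against the 10 active cells in the number range, which had 18.9 CPM. The L-type gene Cacna1c (chromosome 6, 118587240 to 119196418, minus strand) was low in both, with 10.4 and 8.14 CPM, and its log2 ratio of 0.32 turned to -0.49 against those 10 cells. Cacna2d3, an auxiliary subunit, was higher, at 250 CPM in depolarized cells and 78.7 CPM in active cells, with medians over cells of 207 and 0 CPM, and Cacnb2, a beta subunit, had 205.4 and 150 CPM.

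Sodium channel genes lay near the background, with 6 of 14 measured members higher and 5 lower by 2-fold or more. Of all measured genes, 42.5% were higher and 38.6% lower by 2-fold or more. Scn8a, the Nav1.6 channel (chromosome 15, 100869858 to 101045938, plus strand), had 135 CPM in depolarized cells and 66.9 CPM in active cells, but the log2 ratio of 0.996 was 0.14 without S387 and -0.28 by the medians over cells. Nalcn, the sodium leak channel that carries the depolarising day current (chromosome 14, 123276634 to 123627144, minus strand), had 161 CPM in depolarized cells and 296 CPM in active cells (log2 -0.87), with medians over cells of 10.3 and 57.8 CPM. Against the 10 active cells in the number range, which had 115 CPM, its direction turned (log2 0.49). Its partner Unc80 had 67.1 CPM in depolarized cells and 130 CPM in active cells. Scn3a, the Nav1.3 channel, had 10.97 CPM in depolarized cells and 131 CPM in active cells, with a thinned read in 2 of 7 and 17 of 27 cells.

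Of 18 measured calcium store and pump genes, 6 were higher and 12 were lower by 2-fold or more (median -1.96), where 42.5% of all measured genes were higher and 38.6% lower by 2-fold or more. Atp2b2, a plasma membrane calcium pump, had 107 CPM in depolarized cells and 280 CPM in active cells, and a thinned read in 3 of 7 and 19 of 27 cells. Of 20 glutamate receptor genes, 11 were lower by 2-fold or more and 2 higher (median -1.66). The NMDA subunit gene Grin2b had 11.6 CPM in depolarized cells and 46.6 CPM in active cells, and the AMPA subunit gene Gria4 had 34.5 and 98.8 CPM. GABA-A receptor genes were higher for 6 of 13 (median -0.51). Slc20a2, the phosphate importer PiT-2 (chromosome 8, 22476788 to 22569612, plus strand), had 3.36 CPM in depolarized cells and 48.3 CPM in active cells, with a thinned read in 2 of 7 and 8 of 27 cells and a median of 0 CPM in both groups.

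Signalling, secretion and transcription factor lists lay close to the background. The cAMP and calcium signalling genes were higher for 17 of 33 (median 0.02), the synaptic vesicle genes for 11 of 22 and the secretory granule genes for 10 of 20 (each median -0.01). Syt1, the calcium sensor of vesicle release, ran from 0 to 259 CPM (median 0.259) in depolarized cells and from 0 to 989 CPM (median 61.4) in active cells, with pooled levels of 83.8 and 230.8 CPM. Dnajc5, the vesicle chaperone CSP, had 15.01 CPM in depolarized cells, nearly all from S381, and 211 CPM in active cells, 18 of which had a thinned read. Of the SCN transcription factors, 8 of 16 were higher, led by Nr2f2 (COUP-TFII) at 81.1 CPM in depolarized cells and 11.2 CPM in active cells and Tshz2 at 202.1 and 58.9 CPM. Their log2 ratios of 2.75 and 1.76 were 1.32 without S387 and 0.72 without S400. Of the calcium-binding proteins, Ncald had 31.4 CPM in depolarized cells, all from S381, and 212 CPM in active cells, and Ncs1 had 193.5 and 81.4 CPM.

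Ribosomal protein genes had the most uniform shift of the larger lists. Of 36 measured members, 31 were higher in depolarized cells, 8 by 2-fold or more and 0 were lower by 2-fold or more, with a median log2 ratio of 0.59 against -0.32 for all genes and -0.02 for the genes found in at least 17 cells. Of all 81 measured symbols of this family, 68 were higher and 24 were 2-fold higher (median 0.74). Rpl3, of the large subunit, ran from 180.8 to 1770 CPM (median 444.1) in depolarized cells and from 0 to 787 CPM (median 199.01) in active cells, with pooled levels of 678 and 230.8 CPM. Rpl7 had 439.2 CPM in depolarized cells and 148.8 CPM in active cells, Rpl13 had 410.6 and 176.4 CPM, and Rps19, of the small subunit, had 329.3 and 122.99 CPM. These genes have many near-identical processed copies in the genome, so the counting may split their reads between symbols.

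The summed level of the 36 genes was 3412 to 15165 CPM (median 6482) in depolarized cells and 1880 to 10283 CPM (median 4592) in active cells, with a median of 4149 CPM in silent cells. Cell S387, at 15165 CPM, lay above each of the 27 active cells, S349 at 9023 CPM lay above 26 of them, and S381 and S400 lay above 9. Without S387 the count was 25 of 36 with a median log2 ratio of 0.17, and without S349 it was 24 of 36 with a median of 0.54. Against the 10 active cells with numbers between those of S324 and S412, the count was 24 of 36 with a median of 0.09. In the 3 other groups of depolarized cells, 13 of 36 genes were higher in the 2 day cFOS+ cells, 34 of 36 in the 2 night cFOS- cells and 24 of 36 in the 3 night cFOS+ cells, each against active cells of the same time and cFOS label, where 25.9%, 27.5% and 38.5% of all measured genes were higher.

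**Figure D4:**
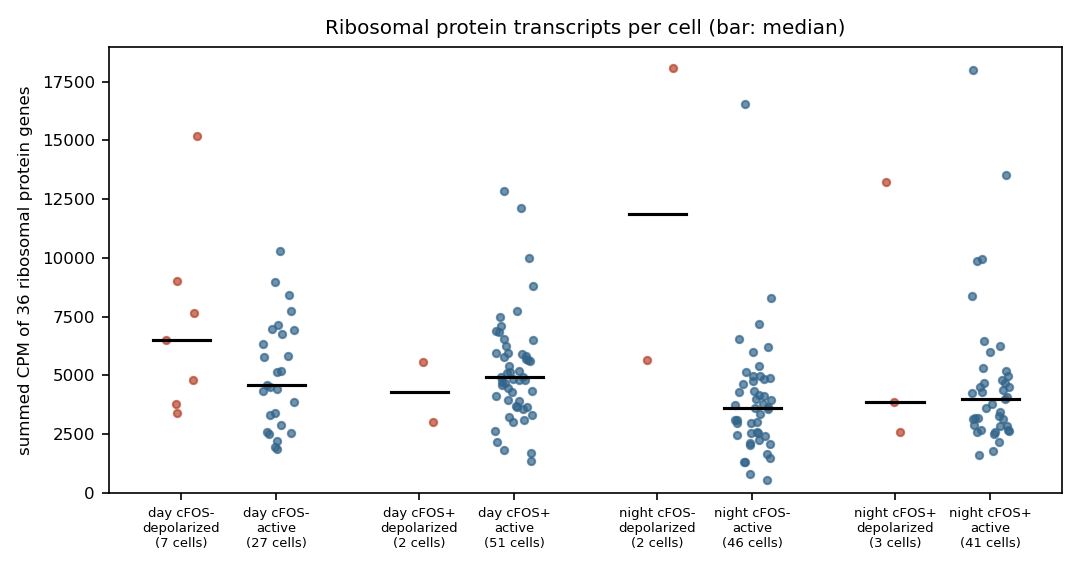
Summed CPM of 36 ribosomal protein genes in each cell, for the 4 pairs of depolarized and active groups, each point 1 cell and each bar a median. Day cFOS- depolarized cells range from 3412 to 15165 CPM around a median of 6482 CPM, against 4592 CPM in active cells, and single cells stand at 18095 CPM among the night cFOS- and 13237 CPM among the night cFOS+ depolarized cells.

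Among energy genes, mitochondrially encoded genes were higher for 8 of 10 members (median 0.46), with 0 past 2-fold. They were higher for 4 of 10 without S387, whose summed level of 20521 CPM was the highest of the 7, and for 5 of 10 against the 10 active cells in the number range. The nuclear genes of the respiratory chain were higher for 18 of 40 (median -0.03). Atp5a1, the alpha subunit of ATP synthase, ran from 2.44 to 500.6 CPM (median 253.9) in depolarized cells and from 0 to 3251 CPM (median 1019) in active cells, a log2 ratio of -1.76 that was -1.54 or lower as each depolarized cell was left out. Its gamma subunit gene Atp5c1 went the other way, with 731 CPM in depolarized cells and 271.7 CPM in active cells. Sdhd, of complex II, had 79.2 CPM in depolarized cells, nearly all from S349, and 310.7 CPM in active cells. Glycolysis genes were higher for 15 of 20, with 0 higher and 3 lower by 2-fold or more (median 0.22). Ldha, lactate dehydrogenase A, had 595 CPM in depolarized cells and 318.05 CPM in active cells with a thinned read in 7 of 7 and 15 of 27 cells. Without S387 the median of the glycolysis list was -0.14.

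Of the protective genes, 6 of 20 antioxidant genes were higher (median -0.30). Srxn1, sulfiredoxin, which restores oxidised peroxiredoxins, ran from 0 to 410 CPM (median 2.64) in depolarized cells and from 0 to 2074 CPM (median 487.6) in active cells. Its pooled levels were 124 and 613 CPM, and 4 of 7 and 25 of 27 cells had a thinned read. Axon injury and p53 target genes were higher for 2 of 15 (median -1.24), with the p53 antagonist Mdm2 at 64.2 CPM in depolarized cells and 190 CPM in active cells and the growth arrest gene Gadd45a at 59.9 and 24.05 CPM. Heat shock genes were higher for 10 of 18 (median 0.15), and the chaperone gene Hspa4 had 14.2 CPM in depolarized cells and 148 CPM in active cells.

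By a rule of size and evenness, 28 further genes were picked, 14 in each direction. The rule asks for at least 20 pooled CPM in one group, a pooled difference of 2-fold or more and the same direction in every summary listed above and in the thinned share of cells, so the values below describe genes chosen for this pattern. The 14 higher genes had a thinned read in 4 or 5 of the 7 depolarized cells and in 1 to 14 of the 27 active cells. Prim1, the catalytic subunit of DNA primase (chromosome 10, 128015168 to 128030037, plus strand), ran from 0 to 690 CPM (median 174) in depolarized cells and from 0 to 167 CPM (median 0) in active cells. It had a thinned read in 5 of 7 and 6 of 27 cells, and pooled levels of 230.8 CPM (226 to 235.6) and 13.4 CPM (12.8 to 13.9). Alkbh8, a methyltransferase of the tRNA wobble base (chromosome 9, 3335140 to 3391154, plus strand), had 70.5 CPM in depolarized cells and 0.837 CPM in active cells, with reads in 4 of 7 and 1 of 27 cells, the largest ratio of the 14.

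Among the other higher genes, Ogfod1, a hydroxylase of a ribosomal protein (chromosome 8, 94037198 to 94067921, plus strand), had 337 CPM in depolarized cells and 45.4 CPM in active cells, with a thinned read in 5 of 7 and 14 of 27 cells. Rb1cc1, the FIP200 scaffold that starts autophagy (chromosome 1, 6206197 to 6276648, plus strand), had 271 CPM in depolarized cells and 32.7 CPM in active cells. Stt3b, an oligosaccharyltransferase subunit, had 138 CPM in depolarized cells and 10.7 CPM in active cells. Ubr2, a ubiquitin ligase, had 158 CPM in depolarized cells and 12.6 CPM in active cells, and Serpinb6a, a protease inhibitor, had 230 and 23.9 CPM. Agtpbp1, which trims glutamates from tubulin and is mutated in Purkinje cell degeneration mice, had 180 CPM in depolarized cells and 23.5 CPM in active cells (log2 2.88, and 1.30 without S387). Gpc3, the proteoglycan glypican 3 (chromosome X, 52272426 to 52613950, minus strand), had 296 CPM in depolarized cells and 36.7 CPM in active cells, and Nkd1, a Wnt antagonist, had 247.8 and 22.5 CPM. The remaining higher genes were Ppp4r1, Pih1d2, Pcmtd1 and Prpf4b, with 71.2 to 174.9 CPM in depolarized cells and 7.10 to 13.3 CPM in active cells.

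The 14 lower genes were nearly absent from the depolarized cells. Flcn, the gene of folliculin, which controls mTORC1 at the lysosome (chromosome 11, 59791408 to 59810016, minus strand), had at most 0.407 CPM in any depolarized cell and 0 to 1755 CPM (median 131) in active cells. Its pooled levels were 0.100 CPM (0.027 to 0.257) and 317.3 CPM (314.8 to 320). Apex1, the abasic site endonuclease of base excision repair (chromosome 14, 50924968 to 50927139, plus strand), had no read in any depolarized cell and 174 CPM in active cells, 16 of 27 of which had a thinned read. Against 3 counts over the group, this pooled level is at least 2315-fold lower. Med10, a Mediator subunit (chromosome 13, 69802395 to 69816104, plus strand), also had no read in depolarized cells, against 86.2 CPM in active cells, at least 1146-fold lower by the same bound. Both bounds cover the counting of reads only and not the spread between cells. Among all measured genes, 14.7% had no read in any depolarized cell. Silent cells had 193 CPM of Flcn, 159 CPM of Apex1 and 81.8 CPM of Med10.

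Among the other lower genes, Tmem55b, a phosphoinositide phosphatase of lysosomes, had 1.33 CPM in depolarized cells and 228 CPM in active cells, Psmb4, a proteasome subunit, had 1.68 and 184.8 CPM, and Snx10, a sorting nexin, had 7.49 and 222 CPM. Ube2e1, a ubiquitin-conjugating enzyme, had 1.18 CPM in depolarized cells and 74.2 CPM in active cells. Hdac3, a histone deacetylase, had 3.93 CPM in depolarized cells and 128.3 CPM in active cells, and Mars, the methionyl-tRNA synthetase, had 5.19 and 111 CPM. Cpt1c, the brain form of carnitine palmitoyltransferase 1, had 12.8 CPM in depolarized cells and 280.7 CPM in active cells. Sgsm1, Hax1 and Scnm1 were also among the 14, with 0.100 to 3.56 CPM in depolarized cells and 47.8 to 251.9 CPM in active cells. The highest level of any of the 14 genes in a depolarized cell was 57.4 CPM, of Cpt1c in S412, and each gene had a thinned read in 14 to 20 of the 27 active cells.

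**Figure D5:**
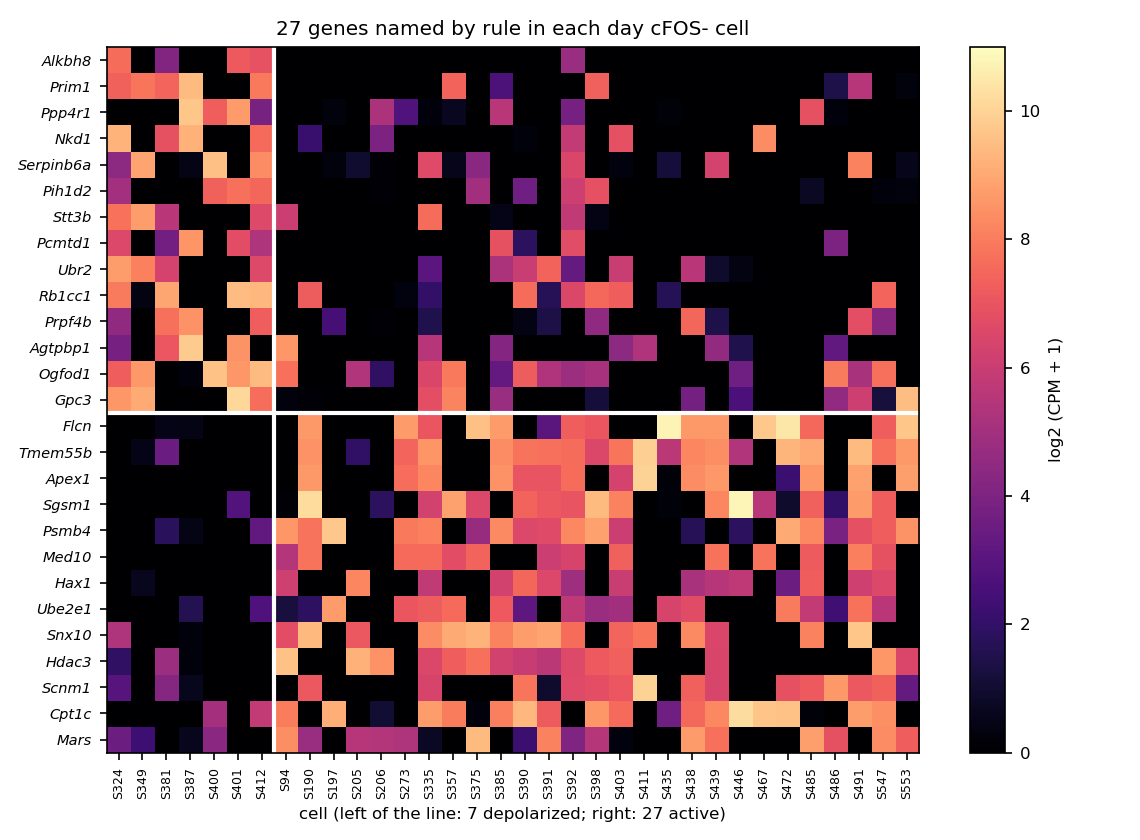
Levels as log2 (CPM + 1) of 27 of the 28 genes picked by rule, 14 higher above the white line and 13 lower below it, in the 7 depolarized cells left of the vertical line and the 27 active cells right of it. The upper genes are on in 4 or 5 of the 7 depolarized cells and in 1 to 14 active cells, and the lower genes are dark in most depolarized cells and on in 14 to 20 active cells.

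Markers of microglia, the resident immune cells of the brain, had lower pooled levels in the depolarized cells. All 13 measured markers were lower in this way, 11 by 2-fold or more. By the median over cells, 0 of 13 were lower. Their summed level was 0 to 1946 CPM (median 0.293) in depolarized cells and 0 to 22265 CPM (median 49.7) in active cells. The defining markers P2ry12, Cx3cr1, Tmem119, Fcrls and Siglech had no read in any depolarized cell. P2ry12 had 171 CPM and Cx3cr1 53.1 CPM in active cells, 3 and 5 of which had a thinned read, and Csf1r had 15.6 CPM in depolarized cells and 292.7 CPM in active cells. Of 14 measured inflammatory cytokine genes, 1 was higher and 12 were lower by 2-fold or more in the pooled level. The chemokine gene Ccl3 had 0.902 CPM in depolarized cells and 206.4 CPM in active cells, and Ccl4 had 139 and 992 CPM. Per cell, the list summed to 0 to 936 CPM (median 344.8) in depolarized cells and to 0 to 36716 CPM (median 310.9) in active cells. Cell S491 held that highest active sum and also the 22265 CPM of microglia markers. The part of these markers in the other results was not tested. Without the 3 depolarized and 11 active cells at 100 CPM or more of the markers, the 28 picked genes kept their direction, Fos had a log2 ratio of 0.44 and Ppp1r15a one of 1.67, and 26 of 36 ribosomal protein genes were higher.

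The other 7 depolarized cells of the series, 2 day cFOS+, 2 night cFOS- and 3 night cFOS+ cells, were set against 138 active cells of the same time and cFOS labels, which share no cell with the groups above. In them 40.1% of 11755 measured genes were higher, 17.3% by 2-fold or more. Across the 10354 genes measured in both, the log2 ratios here and there had a Pearson correlation of 0.018 (Spearman 0.011), and across the 3053 of these found in at least 17 of the 34 cells it was 0.121 (0.086). Of the evenly higher genes, 45.9% were higher in the other depolarized cells too, and of the evenly lower genes, 62.1% were lower there, where 59.9% of all genes were lower, 39.6% by 2-fold or more. Of the 28 picked genes, 5 of the 14 higher ones were higher there and 11 of the 14 lower ones were lower. Prim1, Ogfod1 and Ubr2 had log2 ratios of 1.06, 1.17 and 1.21 there, while Serpinb6a and Alkbh8 had -6.76 and -4.80, and Apex1 and Flcn had -0.33 and -0.20. Single cells led these values: of the 7 cells, only S286 had a read of Prim1, at 56.6 CPM. Ogfod1 and Ubr2 were highest in S352, at 663 and 903 CPM, with 152 and 69.8 CPM in the next cell. Serpinb6a and Alkbh8 had no read in any of the 7.

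Single genes described above also varied in direction in those cells. Ppp1r15a was higher in the other depolarized cells (log2 1.19), as were Btg2 (0.47), Rpl13 (1.44), Rps19 (1.17) and Per3 (0.48). Fos and Egr1 were lower there (-0.58 and -0.73), and so were Cry2 (-1.04), Avp (-0.30) and Prok2 (-4.14). Cacna1g, Cacna1d and Atp5a1 had log2 ratios of -0.47, -0.01 and -0.18. By group, microglia markers were higher for 4 of 13 members in the day cFOS+ depolarized cells (median log2 -5.02), for 12 of 13 in the night cFOS- cells (3.75) and for 13 of 13 in the night cFOS+ cells (4.20). The night values followed single cells, with 20313 CPM of the summed markers in 1 of 2 cFOS- cells and 13115 CPM in 1 of 3 cFOS+ cells.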

How the data were processed

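The authors deposited a table of raw read counts (22800 gene symbols by 298 cells), which was used here, and a normalized signal, which equalled the deposited counts divided by 1 factor per cell in all 298 columns (relative tolerance 1e-06). A logarithm of that signal was not used. STAR, DESeq2 and the build GRCm38.p4 are listed, per the submitters' processing notes, with no role or version. The labels do not name the annotation, the counting tool or the strand setting, so overlapping genes and near-identical copies may share reads. No molecular identifiers are mentioned.

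From the deposited counts, CPM, pooled CPM with exact Poisson 95% intervals, and log2 ratios with a pseudocount of 1 CPM were computed with Python 3.11.15, numpy 2.4.6, pandas 2.3.3 and scipy 1.17.1. Shares used counts thinned to 3412667 reads with exact Clopper-Pearson 95% intervals. No cell was filtered out, no doublet caller was run on these single-pipette libraries, and 34 cells were used by title. The calculation of the ratios was checked on simulated counts with known folds, drawn from the pooled profile with a smooth spread between cells. No simulated gene was set to be on in some cells and off in others, so the check does not cover such genes. The labels name no animal or slice, so each group is 1 sample, without tests.

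Genes were named where past 2-fold with at least 20 CPM and of 1 direction in the pooled value, mean, median and thinned share, with the top cell of each group left out and without each depolarized cell in turn. Predicted genes and those of the ribosome or the mitochondrial genome were not eligible, and the 14 with the largest smallest ratio were taken in each direction; 1 of the lower genes is not reported here. In each list, 2 to 4 members were taken by the same ranking, and 14 genes, from Fos to Gad2, were given whatever their values. The members, lists and rules were chosen with earlier results of these data known. Gene positions come from GENCODE M21 (GRCm38), an annotation other than that of the counts. Upstream sequences come from the RefSeq table of GRCm38.p6; Rpl3 and Rpl7 have no entry in it.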

Additional observations from a re-analysis of the deposited data

Results flagged for a closer look

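Among the gene and list levels of the 7 depolarized cells, 17 (14.3%) had 1 cell far from the others, judged by the gap to the nearest cell over the whole range on the log2 (CPM + 1) scale; chance flags about 1 in 20 such groups of normally distributed values, and levels with many zeros, such as Ncald with no read in 6 of 7 cells, are not of that kind. Cell S387 was behind 4 of them: it was high in nuclear respiratory chain genes (24939 CPM summed, next 9702 CPM, gap 0.743) and glycolysis genes (24466 CPM, next 12958 CPM, gap 0.668), and low in GABA-A receptor genes (2.96 CPM, next 400 CPM, gap 0.759) and Atp5a1 (2.44 CPM, next 81.5 CPM, gap 0.638). It was also the highest of the 7 in ribosomal protein and mitochondrially encoded transcripts. S412 was low in voltage-gated potassium channel genes (346.9 CPM, next 779 CPM, gap 0.5684) and high in Csf1r (99.3 CPM, gap 0.965).

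S401 had no read of Rpl7 (gap 0.798) or Atp5c1 (gap 0.673) and 0.293 CPM of Ppp1r15a (gap 0.842), and S400 none of Gad2 (gap 0.619) or Rps19 (gap 0.736). S349 was high in Sdhd (443.8 CPM, gap 0.951) and Ccl4 (777 CPM, gap 0.892) and had no read of Camk2a (gap 0.659). S381 alone held Ncald (254.8 CPM, gap 1) and nearly alone Dnajc5 (121.6 CPM, gap 0.967), and S324 held Snx10 (38.6 CPM, gap 0.956).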

How the results depend on the processing

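The settings tried were the mean or median over cells, leaving out each group's top cell or each depolarized cell, the deposited normalized signal, thinned counts, a pseudocount of 10 CPM, a limit of 20 CPM or none, active cells with numbers in the range of the depolarized cells, cells with little microglia marker, and, chosen after seeing the data, genes found in at least 17 of 34 cells. In the 15 that change a ratio (the limits change only the counts), the 28 picked genes kept their direction. The picking rule already required that direction in the mean, the median and on leaving out each group's top cell or each depolarized cell. A pseudocount of 10 CPM cannot turn a sign. The direction was free to turn only with the normalized signal, thinned counts, the number range and cells with little microglia marker. Of 48 other genes checked past 2-fold, not held to that rule in full, 35 kept their direction. Another 8 turned sign, and Cacna1d, Slc20a2, P2ry12, Cx3cr1 and Ccl3 showed no difference by the median. List members among the 48 were mostly taken by the ranking of that rule, which favours ratios far from 0 in each summary. Their kept direction was thus partly set by the choice. Genes 2-fold higher numbered 2313, but 1248 by the median, 952 without top cells and 300 among widely found genes; genes 2-fold lower numbered 4320, but 950 by the median, 2740 at 20 CPM and 611 among widely found genes. Evenly lower genes numbered 1527 against the 10 active cells in the number range and 1315 without cells with microglia markers, against 648 over all cells, and evenly higher genes were 8.18% (250) of the 3058 widely found genes and 4.67% of all measured genes. Immediate early genes higher numbered 11 by the median, 10 without top cells and 9 of 14 widely found, against 18 of 35. Mitochondrially encoded genes higher numbered 5 of 7 at 20 CPM and 5 of 10 against the 10 active cells, against 8 of 10. Microglia markers lower numbered 0 by the median and 6 without the cells carrying them, against 13.

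Leaving out each depolarized cell gave 2202 to 2317 genes 2-fold higher, 4311 to 4837 lower, 645 to 739 evenly higher and 595 to 751 evenly lower. It gave 15 to 19 immediate early, 10 to 14 clock, 4 to 9 mitochondrially encoded and 24 to 32 ribosomal protein genes higher, and 12 to 13 microglia markers lower. Signs turned for these values past 2-fold. At 20 CPM the median log2 ratio was 0.29 for voltage-gated and 0.54 for calcium- and sodium-activated potassium channels. For neuropeptides it was 0.0504 against the 10 active cells and 1.67 for the 1 widely found gene, and for inflammatory genes 0.44 for the 1 widely found gene. Vip was at 2.36 by the median. Leaving out cells rich in microglia markers, Avp was at -1.40, Prok2 at -6.96, Pdia4 at -0.40, Csf1r at 0.0747 and Ccl4 at 0.46. Against the 10 active cells, Slc24a3 was at 0.0138 and Ccl4 at 0.81, and Penk ran from -1.09 (without S400) to 1.69 as each depolarized cell was left out. Of 23 genes checked under 2-fold, 10 turned sign. By the median, Kcnma1 was at 2.65, Nr1d1 at -2.89, Gad2 at 7.32, Scn8a at -0.28 and mt-Nd5 at -0.53. Against the 10 active cells, Kcnma1 was at 2.06, Nalcn at 0.49, Cacna1c at -0.49, Per1 at 0.07 and mt-Co1 at -0.22. Without microglia-rich cells, Kcnma1 was at 0.11, Nr1d1 at -6.53, Nms at -7.55, Gad2 at 0.65 and Cacna1c at -1.14. The causes were not tested. Shares of cells moved outside their exact interval for 3 of 84 values with at least 5 thinned reads, 9 of 84 with at least 10 CPM and 0 of 84 without thinning. No paired analysis was possible because the numbers in the titles are unique to each cell.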
